A study of Mus musculus with 19 samples.

Results

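The genes described here are 153 precursors of conserved microRNAs among 22180 genes measured on mouse arrays. Membership followed from gene names, by a rule set with earlier results of these data known. It took every gene on a probe set with a single symbol of a given form. That symbol began with Mirlet7, or with Mir followed by a number no higher than that of Mir224. Host transcripts were left out. The set held 11 let-7 genes, and 149 of the 153 genes had 1 probe set. For Mir191, Mir9-1, Mirlet7e and Mirlet7f-1 the probe set with the brighter mean over all arrays was used. A further 30 precursor symbols that fitted the naming occurred only on probe sets shared with another gene, among them Mir126a with Egfl7 and Mir21a with Vmp1, and were not analysed here.

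The samples were 7 angiosarcomas (tumors), malignant growths of blood vessel lining cells, from mice of genotype aP2-Cre/+;DicerFlox/-, and tissues of wild type mice: 4 aortas, 4 sternocleidomastoid muscles of the neck and 4 quadriceps femoris muscles of the thigh. The aP2 (Fabp4) promoter drives the Cre recombinase in the tumor-bearing mice, which also carry a floxed and a null allele of Dicer in every cell before Cre acts. All 19 samples had a mixed C57Bl/6 and 129X1/SvJ background, and no agent, age, sex or animal number was labelled. Tissue and genotype differed together in every tumor comparison and cannot be told apart. Because the labels do not say whether samples of a group came from separate animals, p-values measure only the spread between these samples, and in such bulk samples fewer cells of a type and less RNA per cell cannot be told apart.

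MicroRNAs are made in steps. A long primary transcript, often an intron of a protein-coding gene, is cut by Drosha and Dgcr8 in the nucleus into a hairpin, exported by Xpo5, and cut by Dicer1 in the cytoplasm into a short duplex, of which a strand is loaded onto an Argonaute protein and pairs with messenger RNAs through its seed. Dicer acts after the hairpin has been made, so the primary transcript and the hairpin do not need it. The array signal of a precursor gene does not tell primary, hairpin and mature RNA apart.

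The mature strands below belong to precursors on which the results turn. Capitals mark the seed, bases 2 to 8 counted from the 5′ end, which does most of the pairing with targets. In the annotation used, the let-7 seed is listed for 11 of the genes, Mir98 among them, but not for Mirlet7a-2. The sequences are from RefSeq on GRCm38.p6, where 141 of the 153 genes had a mature sequence and 50 seeds were shared by more than 1 gene.
let-7e-5p: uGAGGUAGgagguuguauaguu
let-7c-5p: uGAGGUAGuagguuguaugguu
let-7b-5p: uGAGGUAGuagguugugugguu
let-7a-5p: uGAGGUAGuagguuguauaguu
let-7i-5p: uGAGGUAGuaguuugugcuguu
miR-23a-3p: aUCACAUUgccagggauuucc
miR-27a-3p: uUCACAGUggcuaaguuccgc
miR-140-3p: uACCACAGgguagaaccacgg
miR-193b-3p: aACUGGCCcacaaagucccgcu

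Some microRNAs are encoded by several loci that give the same mature strand from different hairpins. These 3 pairs of hairpins are shown because their loci differed in opposite or unequal ways between tumors and muscle, a split that aortas showed in part for the Mir181b and Mir7 pairs. Capitals mark the annotated mature strands, the first of which is the same within each pair (miR-181b-5p, miR-7a-5p and miR-16-5p) while the flanks and loops differ. On GRCm38.p6, Mir181b-1 lies at chr1:137966639-137966718 on the plus strand, Mir181b-2 at chr2:38853830-38853918 on the plus strand, Mir7-1 at chr13:58392779-58392886 on the minus strand, Mir7-2 at chr7:78888277-78888373 on the plus strand, Mir16-1 at chr14:61631880-61631972 on the minus strand and Mir16-2 at chr3:69009902-69009996 on the plus strand.
Mir181b-1: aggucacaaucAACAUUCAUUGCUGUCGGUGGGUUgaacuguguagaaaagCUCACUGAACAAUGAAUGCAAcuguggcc
Mir181b-2: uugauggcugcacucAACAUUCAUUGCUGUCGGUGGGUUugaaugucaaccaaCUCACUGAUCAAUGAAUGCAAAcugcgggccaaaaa
Mir7-1: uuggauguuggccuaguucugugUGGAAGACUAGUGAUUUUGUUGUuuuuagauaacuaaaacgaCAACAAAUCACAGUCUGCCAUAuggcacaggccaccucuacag
Mir7-2: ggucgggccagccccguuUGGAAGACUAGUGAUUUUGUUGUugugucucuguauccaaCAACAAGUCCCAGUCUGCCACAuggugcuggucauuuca
Mir16-1: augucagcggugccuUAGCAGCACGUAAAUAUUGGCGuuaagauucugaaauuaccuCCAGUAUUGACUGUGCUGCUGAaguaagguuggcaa
Mir16-2: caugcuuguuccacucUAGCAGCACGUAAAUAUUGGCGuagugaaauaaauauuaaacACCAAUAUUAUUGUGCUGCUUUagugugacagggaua

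Values were read as log2 intensity, with array medians of 5.35 to 5.48. The precursor genes gave dim signals: 128 of 153 lay below 5.89, the median of all genes and arrays, in every group mean, 25 (16.3%) lay above it in at least 1 group, against 56.5% of all genes, and 14 lay above it in all 4 groups. A dim signal is a property of the probes as well as of the RNA, and differences between dim values understate differences in RNA. The median SD of a precursor gene was 0.22 among tumors (0.21 over all genes), 0.20 among aortas (0.16), 0.22 among sternocleidomastoid samples (0.16) and 0.18 among quadriceps samples (0.14). Tumor 2 had the lowest value of the 7 tumors in 55 precursor genes (35.9%), against 20.3% of all genes.

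**Figure D1:**
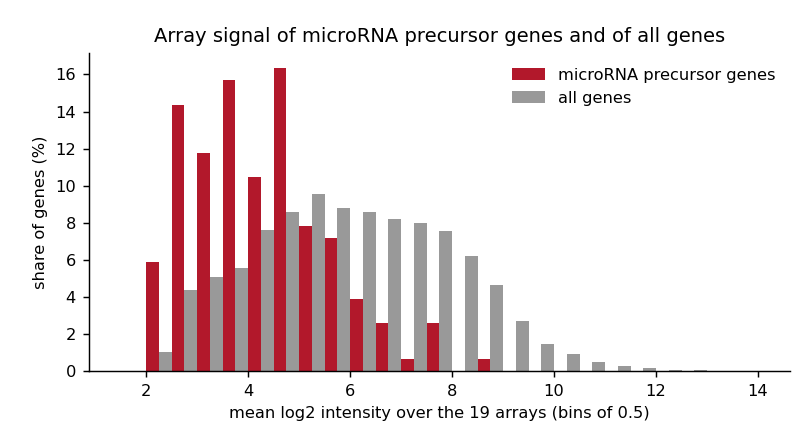
Histogram of the mean log2 intensity over the 19 arrays (bins of 0.5) for the 153 microRNA precursor genes in red and for all 22180 genes in grey, each as a percentage of its own set. The precursor genes run from 2.28 to 8.64 with a median of 4.13, against a median of 5.96 for all genes.

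The labelled tissues carried their markers. Values for a marker list are log2 of the summed linear intensities, and counts are genes past the threshold. The 8 endothelial markers summed to 13.55 to 14.36 in tumors, above 12.04 to 12.16 in aortas, and all 8 rose against aorta and against muscle. The 6 smooth muscle markers summed to 12.17 to 13.29 in tumors and to 13.44 to 13.85 in aortas. The 7 skeletal muscle markers summed to 8.76 to 13.72 in tumors and 10.56 to 11.97 in aortas, below 15.25 to 15.30 in sternocleidomastoid and 15.05 to 15.24 in quadriceps samples. The aortas also carried heart muscle and brown adipocyte transcripts, with sums of 12.51 to 13.30 for 5 heart markers, against 7.32 to 9.04 in tumors, and of 13.45 to 13.84 for 4 brown adipocyte markers, against 6.69 to 11.55 in tumors. Macrophage and neutrophil markers rose in tumors against both tissues (5 of 5 and 4 of 4).

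Against the aorta, 23 of the 153 precursor genes passed the threshold of a limma adjusted p under 0.05 over all 22180 genes: 6 rose and 17 fell. That is 15.0% of the set, while 36.2% of all genes passed (18.6% higher and 17.5% lower). For 10 precursor genes all tumors lay beyond all aortas, a separation seen in 23.7% of all genes. Of the 23, 5 differed by 2-fold or more, and the median difference of the set was -0.02, equal to that of all genes to 2 decimals. At an unadjusted p under 0.05, 34 precursor genes passed, given here without a count over all genes.

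Against muscle, taken as the mean of both muscle group means, 54 precursor genes passed (35.3%), 25 higher and 29 lower, while 51.0% of all genes passed (25.3% higher and 25.7% lower). The groups did not overlap in 9 precursor genes, against 27.3% of all genes, and 10 of the 54 differed by 2-fold or more. The median difference was -0.05 for the set and -0.04 for all genes. The 2 tumor comparisons share the tumors: 14 precursor genes passed in both, 9 against aorta only, 40 against muscle only and 90 in neither. These classes are given here without counts over all genes, and the count in both is not shown to be particular to precursor genes.

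**Figure D2:**
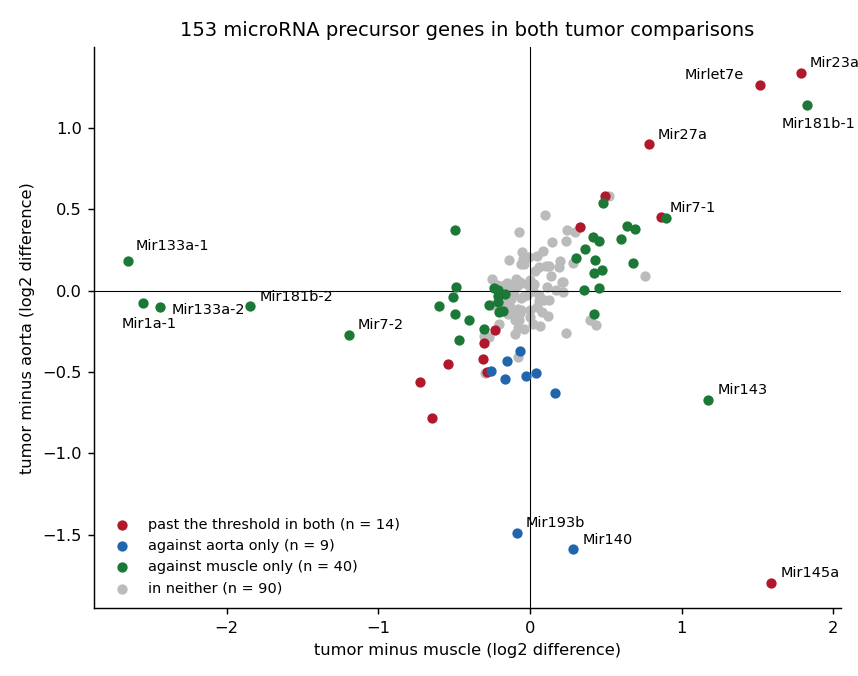
Log2 difference of each of the 153 precursor genes, tumor minus muscle on the horizontal axis and tumor minus aorta on the vertical axis, coloured by the comparisons in which the gene passed the threshold. Mir23a and Mirlet7e lie far to the upper right, Mir133a-1, Mir1a-1 and Mir133a-2 lie far left near a vertical value of 0, and Mir145a lies to the lower right.

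These counts depend on the scale. When each array was centred on 9 measured housekeeping genes, of which 5 were themselves higher in tumors than in aorta, the median of all genes moved to -0.59 against aorta and to -0.85 against muscle. On that scale 2 precursor genes, Mir23a and Mirlet7e, were higher than in aorta and 122 lower. Against muscle 3, Mir23a, Mirlet7e and Mir181b-1, were higher and 132 lower. Among all 22180 genes, 1296 were then higher and 16765 lower than in aorta, and 1748 higher and 18089 lower than in muscle. The family counts on this scale below stand beside these counts of all genes.

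The precursor genes that rose in tumors against both tissues were Mir23a, Mir27a, Mirlet7e, Mir7-1, Mir148b and Mir151, of which only Mir23a and Mirlet7e also rose in both on the housekeeping scale. Mir23a and Mir27a come from a single primary transcript on chromosome 8, and the mouse microRNAs are known from endothelial cells and from angiogenesis. Mir23a had log2 intensities of 5.16 at the lowest, 5.77 at the median and 6.83 at the highest in tumors, against 4.75, 4.59, 4.87 and 4.10 in aortas, 4.06, 3.79, 4.24 and 4.15 in sternocleidomastoid samples and 4.22, 4.24, 4.19 and 4.17 in quadriceps samples. Every tumor lay above every normal sample, and the 2 muscles lay close together. The difference was 1.34 ± 0.23 against aorta (SE; limma adjusted p = 0.000100; 2.52-fold) and 1.78 ± 0.19 against muscle (adjusted p = 1.09e-07; 3.45-fold). On the housekeeping scale it was 0.77 (adjusted p = 0.00436) in the comparison with aorta and 0.97 (adjusted p = 6.41e-05) in that with muscle.

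Mir27a had 5.61, 6.39 and 6.78 in tumors (lowest, median and highest), against 5.38, 5.56, 5.54 and 5.25 in aortas, 5.60, 5.42, 5.94 and 4.999 in sternocleidomastoid samples and 5.74, 5.53, 5.70 and 5.46 in quadriceps samples. The tumors all lay above the aortas, while tumor 2, the lowest, lay within the muscle range. The differences were 0.90 ± 0.18 against aorta (limma adjusted p = 0.000701) and 0.78 ± 0.15 against muscle (adjusted p = 0.000226), and the second was -0.030 on the housekeeping scale. Their relative from another chromosome, Mir23b, with 6.27, 7.09 and 7.59 in tumors against 7.03, 7.25, 6.90 and 6.71 in aortas, differed by 0.11 from aorta (adjusted p = 0.700) and by 0.42 from muscle (adjusted p = 0.0248; -0.39 on the housekeeping scale; lost in 3 of the fits without 1 array). The 8 endothelial markers above also rose in tumors against both tissues. In aorta against muscle 6 of the 8 rose, while Mir23a differed by 0.45 and Mir27a by -0.11 and neither passed. The part of endothelial cells in the Mir23a and Mir27a differences was not tested.

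The let-7 microRNAs repress growth genes such as Ras, Myc and Hmga2 and accumulate as cells differentiate. Of the 11 let-7 genes, 1 rose and 0 fell against aorta (1 rose and 6 fell on the housekeeping scale), and 4 rose and 0 fell against muscle (1 rose and 8 fell on that scale). These are 9.1% and 36.4% of the 11, while 36.2% and 51.0% of all genes passed. Median differences of the 11 were 0.17 against aorta and -0.05 against muscle, beside -0.02 and -0.04 for all genes. Mirlet7e was the member that rose in both comparisons on both scales. It had 4.89, 6.49 and 6.98 in tumors (lowest, median and highest), against 4.85, 5.43, 5.30 and 4.88 in aortas, 5.001, 4.92, 4.70 and 4.70 in sternocleidomastoid samples and 5.18, 4.86, 4.97 and 4.54 in quadriceps samples. Tumor 2 alone lay among the normal samples, and the other 6 tumors lay at 6.16 or above.

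Mirlet7e differed by 1.26 ± 0.28 from aorta (limma adjusted p = 0.00134) and by 1.52 ± 0.23 from muscle (adjusted p = 1.45e-05). Without tumor 2 the differences were 1.51 and 1.77 (adjusted p = 9.42e-07 and 3.10e-09). The second, dimmer Mirlet7e probe set differed by 0.42 and 0.60 in these comparisons. Its neighbour Mir99b, less than 10 kb away and inside the same gene Spaca6, differed by 0.04 ± 0.10 from aorta (adjusted p = 0.802) and by 0.03 ± 0.08 from muscle (adjusted p = 0.818).

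The other let-7 genes that rose against muscle were Mirlet7c-2 (0.90 ± 0.26; limma adjusted p = 0.00744), Mirlet7c-1 (0.68 ± 0.22; adjusted p = 0.0124; -0.13 on the housekeeping scale) and Mirlet7b (0.43 ± 0.16; adjusted p = 0.0346; -0.38 on that scale; lost in 6 of the fits without 1 array). Mirlet7c-2 had 2.83, 4.17 and 5.61 in tumors (lowest, median and highest), against 3.96, 3.65, 3.65 and 3.75 in aortas, 3.46, 3.33, 3.62 and 3.29 in sternocleidomastoid samples and 3.09, 3.13, 2.93 and 3.56 in quadriceps samples. The tumors spanned the whole range of the normal samples, and without tumor 2 the gene also passed against aorta (0.68, adjusted p = 0.0386). Mirlet7i had group means of 4.25 in tumors, 4.25 in aortas, 4.18 in sternocleidomastoid and 4.27 in quadriceps samples.

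Mir7-1, a precursor of miR-7a that lies in an intron of Hnrnpk, had 6.35, 6.50 and 6.98 in tumors (lowest, median and highest), against 5.93, 6.53, 6.02 and 6.16 in aortas, 5.54, 5.94, 5.71 and 6.11 in sternocleidomastoid samples and 5.66, 5.72, 5.48 and 5.82 in quadriceps samples. The tumors lay above all muscle samples and above 3 of 4 aortas. The difference was 0.45 ± 0.14 against aorta (limma adjusted p = 0.0143) and 0.86 ± 0.11 against muscle (adjusted p = 2.33e-06). On the housekeeping scale these were -0.12 and 0.05, and the call against aorta was lost without aorta 1 (adjusted p = 0.0656) or without aorta 3 (adjusted p = 0.0529). Mir148b and Mir151 rose by less, with 0.58 ± 0.18 and 0.39 ± 0.12 against aorta (adjusted p = 0.0181 and 0.0182), and both were lost without aorta 3.

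The smooth muscle precursors Mir143 and Mir145a, which share a primary transcript and are known for the contractile state of vascular smooth muscle in mice, were intermediate in tumors. Mir145a had 3.23, 5.35 and 7.11 in tumors (lowest, median and highest), against 7.01, 7.81, 7.43 and 6.29 in aortas, 3.93, 4.70, 4.05 and 3.07 in sternocleidomastoid samples and 3.44, 3.51, 3.41 and 3.89 in quadriceps samples. Tumor 2 lay within the muscle range, a single tumor reached the aorta range, and all aortas lay above all muscle samples. It was the only precursor gene with opposite calls in the tumor comparisons, -1.79 ± 0.49 against aorta (limma adjusted p = 0.00715) and 1.59 ± 0.41 against muscle (adjusted p = 0.00272; 0.78 with adjusted p = 0.0804 on the housekeeping scale). With tumors 5 to 7 alone the aorta difference was -0.99 (adjusted p = 0.0943).

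Mir143 had 5.66, 7.12 and 7.79 in tumors (lowest, median and highest), against 7.77, 8.03, 7.88 and 6.66 in aortas, 6.04, 5.81, 5.19 and 5.62 in sternocleidomastoid samples and 5.70, 6.06, 5.60 and 5.88 in quadriceps samples. The tumors overlapped both the aortas and the muscles. It differed by -0.67 ± 0.31 from aorta (limma adjusted p = 0.104; -1.24 with adjusted p = 0.00163 on the housekeeping scale) and by 1.18 ± 0.26 from muscle (adjusted p = 0.000663; 0.36 with adjusted p = 0.196 on that scale). Against aorta, tumors 1 to 4 alone gave -1.06 (adjusted p = 0.00980) and tumors 5 to 7 alone -0.15 (adjusted p = 0.759). The long noncoding RNA Carmn, whose span holds both genes, averaged 7.99 in tumors, 9.02 in aortas, 6.92 in sternocleidomastoid and 7.34 in quadriceps samples, a difference of -1.03 from aorta (adjusted p = 0.00379) and 0.86 from muscle (adjusted p = 0.00214). Of the 6 smooth muscle markers, 5 fell against aorta and 5 rose against muscle in the same arrays, and their part in the Mir143 and Mir145a values was not tested.

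**Figure D3:**
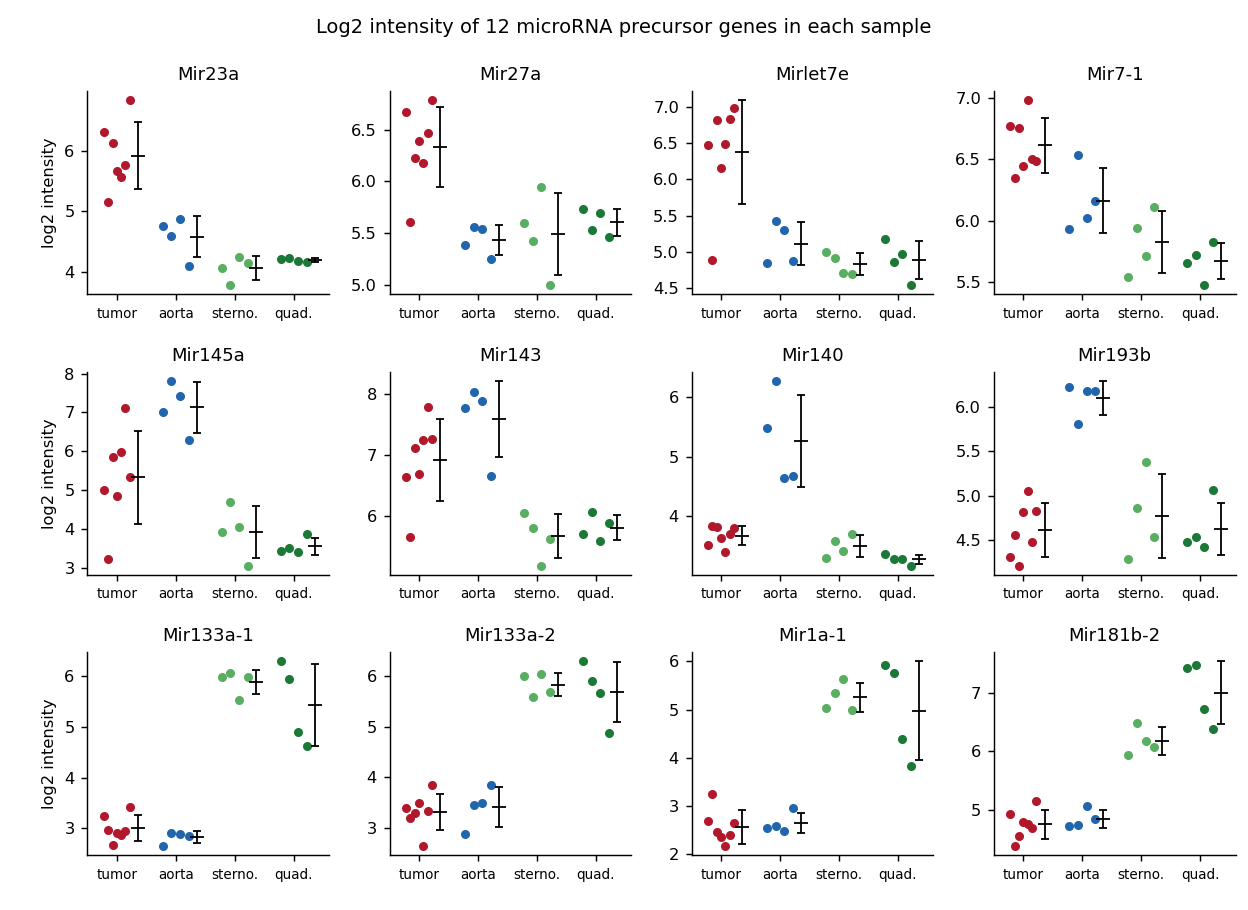
Log2 intensity of 12 precursor genes in each sample, with tumors in red, aortas in blue, sternocleidomastoid (sterno.) in light green and quadriceps (quad.) in dark green, and the mean ± SD as a dash with a bar. Mir23a is high in every tumor, Mir140 and Mir193b in every aorta, and Mir133a-1, Mir133a-2, Mir1a-1 and Mir181b-2 in every muscle sample, while a single low tumor stands apart in Mirlet7e.

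Mir140 and Mir193b had the largest decreases against aorta among the genes whose groups did not overlap. Mir140, a microRNA known for cartilage in mice, lies inside Wwp2. It had 3.41, 3.71 and 3.85 in tumors (lowest, median and highest), against 5.47, 6.27, 4.65 and 4.68 in aortas, 3.30, 3.60, 3.42 and 3.71 in sternocleidomastoid samples and 3.37, 3.29, 3.29 and 3.18 in quadriceps samples. All aortas were high, with aortas 1 and 2 above aortas 3 and 4, and the tumors and muscles lay together. The difference from aorta was -1.59 ± 0.21 (limma adjusted p = 9.01e-06), and Wwp2 differed by -0.79 ± 0.17 (adjusted p = 0.000932).

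Mir193b, known for brown fat differentiation in mice, had 4.21, 4.56 and 5.05 in tumors (lowest, median and highest), against 6.22, 5.81, 6.17 and 6.18 in aortas, 4.29, 4.87, 5.38 and 4.53 in sternocleidomastoid samples and 4.48, 4.54, 4.43 and 5.06 in quadriceps samples. Every aorta lay above every other sample. It differed from aorta by -1.49 ± 0.19 (limma adjusted p = 4.99e-06). The 4 brown adipocyte markers were all lower in tumors than in aortas, and 1 of them was lower than in muscle. They summed to 10.64 to 12.41 in sternocleidomastoid samples and to 6.94 to 10.30 in quadriceps samples. Their part in the Mir193b values was not tested.

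Smaller decreases against aorta with no overlap were found in Mir224 (-0.63 ± 0.16; limma adjusted p = 0.00351), Mir100 (-0.54 ± 0.10; adjusted p = 0.000193), Mir20b (-0.52 ± 0.14; adjusted p = 0.00639), Mir135b (-0.51 ± 0.13; adjusted p = 0.00534) and Mir30b (-0.50 ± 0.13; adjusted p = 0.00407). Mir224 ran from 3.46 to 4.10 in tumors, against 4.55, 5.04, 4.17 and 4.44 in aortas, and Mir100 from 3.27 to 3.66 in tumors, against 4.09, 3.89, 4.23 and 3.77 in aortas. Their host transcripts Gabre and Mir100hg fell as well (-0.86 and -1.11). Mir100hg also holds Mir125b-1 and Mirlet7a-2, which differed from aorta by 0.37 and -0.21 without passing.

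The 7 precursor genes that fell against both tissues were Mir122, Mir124a-3, Mir141, Mir193a, Mir196a-2, Mir30b and Mir32. Their differences were modest, from -0.24 for Mir124a-3 to -0.79 for Mir196a-2 against aorta and from -0.23 for Mir124a-3 to -0.72 for Mir122 against muscle. Mir122, the abundant liver microRNA, ran from 3.27 to 3.85 in tumors, against 3.81, 4.57, 3.99 and 4.17 in aortas, 4.37, 4.42, 4.52 and 4.40 in sternocleidomastoid samples and 4.49, 4.29, 3.97 and 3.89 in quadriceps samples, all of them dim. Mir196a-2, which lies in the Hoxc cluster, ran from 3.77 to 4.95 in tumors, against 5.45, 4.69, 4.83 and 4.80 in aortas, and tumors 2 and 4 were the high ones. Of these 7 genes, Mir122 and Mir196a-2 passed in both comparisons whichever array was left out. Against aorta, Mir141 was lost in 7 of the fits without 1 array (limma adjusted p of 0.0512 to 0.192), Mir193a without aorta 3 (adjusted p = 0.133), and Mir124a-3 and Mir32 without aorta 4 (adjusted p = 0.0718 and 0.108). Against muscle, Mir193a and Mir30b were each lost in 7 such fits (adjusted p of 0.0507 to 0.0626 and of 0.0536 to 0.0697).

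The largest differences from muscle were in the muscle microRNA genes. Mir1a-1 and Mir133a-2 share a primary transcript, Mir133a-1 is a second copy elsewhere, and these microRNAs promote the growth and differentiation of heart and skeletal muscle in mice. Mir133a-1 had 2.67, 2.96 and 3.43 in tumors (lowest, median and highest), against 5.97, 6.05, 5.53 and 5.98 in sternocleidomastoid samples and 6.28, 5.93, 4.89 and 4.61 in quadriceps samples, with 2.65, 2.91, 2.89 and 2.86 in aortas. Every muscle sample was high, quadriceps 3 and 4 were lower than the rest, and tumors and aortas lay together.

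Mir133a-1 differed from muscle by -2.65 ± 0.20 (limma adjusted p = 9.43e-10), Mir1a-1 by -2.55 ± 0.25 (adjusted p = 5.14e-08) and Mir133a-2 by -2.44 ± 0.19 (adjusted p = 2.55e-09), and none of the 3 overlapped. Mir1a-1 had 2.17, 2.46 and 3.25 in tumors (lowest, median and highest), against 5.04, 5.35, 5.64 and 4.997 in sternocleidomastoid samples and 5.92, 5.76, 4.40 and 3.83 in quadriceps samples, and quadriceps 3 and 4 were again the low ones. Its host transcript Mir1a-1hg averaged 5.04 in tumors, 5.79 in aortas, 10.24 in sternocleidomastoid and 10.29 in quadriceps samples, a tumor minus muscle difference of -5.23.

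Of the 7 striated muscle precursors (the miR-1, miR-133, miR-206 and miR-208 families), 3 fell against muscle and 0 rose, and 0 passed against aorta (7 and 5 fell on the housekeeping scale). The share was 42.9% against muscle and 0% against aorta, while 51.0% and 36.2% of all genes passed. The other 4 of these precursors stayed dim in all tissues. Mir133b averaged 4.90 in tumors, 4.66 in aortas, 5.01 in sternocleidomastoid and 4.90 in quadriceps samples. Mir206, a skeletal muscle microRNA, averaged 2.23 in tumors, 2.25 in aortas, 2.42 in sternocleidomastoid and 2.26 in quadriceps samples. Mir208a, encoded inside the heart myosin gene Myh6, averaged 2.59 in tumors, 2.72 in aortas, 2.61 in sternocleidomastoid and 2.76 in quadriceps samples. Myh6 itself averaged 4.82 in tumors and 10.02 in aortas, so the Mir208a probe set stayed dim in aortas where the host signal was bright. All 7 skeletal muscle markers fell against muscle in the tumors, while of 4 slow skeletal muscle markers 1 fell and 0 rose. The slow markers summed to 7.55 to 11.02 in tumors, 8.92 to 9.72 in sternocleidomastoid and 7.73 to 8.73 in quadriceps samples. The part of muscle cells in the Mir1a-1 and Mir133a values was not tested.

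Loci that give the same mature strand differed unequally between tumors and muscle in 10 of 21 pairs, the largest split being that of Mir181b-1 and Mir181b-2. How often pairs of unrelated genes split in this way was not tested, and 51.0% of all genes passed against muscle. The count is therefore not shown to be particular to loci with a shared strand. The 21 pairs (38 loci) shared an identical mature strand in the annotation used. Loci without an annotated mature sequence could not be paired, among them Mir124a-2, Mir124a-3, Mir133a-1 and Mir133a-2. The last 2 differed alike from muscle (-2.65 and -2.44). Mirlet7a-2 was in no pair either. In each pair, the log2 difference of the second-named locus was subtracted from that of the first, and this split was tested with an exact two-sided permutation test over samples, added after the values were seen, with p-values adjusted over the 42 tests (Benjamini-Hochberg). Of these, 11 passed 0.05, of which 10 were against muscle and 1 against aorta, where 3 had an unadjusted p under 0.05. The difference is taken within each array, so centring an array does not change it. Against muscle the 4 pairs named next had an exact permutation p of 0.000311, the smallest that 7 tumors and 8 muscle samples can give, and an adjusted p of 0.00326.

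The miR-181 family, known for lymphocyte and endothelial signalling, held the widest split, 3.67 between Mir181b-1 and Mir181b-2. Mir181b-1 had 2.81, 5.73 and 7.04 in tumors (lowest, median and highest), against 5.45, 4.63, 3.85 and 4.22 in aortas, 3.85, 4.02, 4.14 and 3.35 in sternocleidomastoid samples and 3.70, 3.96, 4.01 and 3.78 in quadriceps samples. Tumor 2 was the lowest sample of all, and the other 6 tumors lay at 5.47 or above. It rose against muscle by 1.83 ± 0.44 (limma adjusted p = 0.00178), and the aorta difference of 1.14 ± 0.54 (adjusted p = 0.111) became 1.62 (adjusted p = 0.000389) without tumor 2.

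Mir181b-2 went the other way. It had 4.38, 4.75 and 5.15 in tumors (lowest, median and highest), against 4.73, 4.73, 5.07 and 4.85 in aortas, 5.94, 6.50, 6.18 and 6.08 in sternocleidomastoid samples and 7.43, 7.48, 6.72 and 6.39 in quadriceps samples. All muscle samples were above all tumors and aortas, and the tumor minus muscle difference was -1.84 ± 0.15 (limma adjusted p = 4.47e-09). Its cluster partner Mir181a-2 fell by 0.50 against muscle (adjusted p = 0.0120), while Mir181a-1, the partner of Mir181b-1, differed by 0.24 (adjusted p = 0.135). Of the 6 members of the family, 1 rose and 2 fell against muscle (1 and 5 on the housekeeping scale), and 0 passed against aorta (2 fell on that scale). The share was 50% against muscle and 0% against aorta, while 51.0% and 36.2% of all genes passed.

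Mir7-1 and Mir7-2 split by 2.06. Mir7-2, which lies on another chromosome, had 4.05, 4.48 and 5.05 in tumors (lowest, median and highest), against 4.97, 4.53, 4.68 and 4.84 in aortas, 5.42, 5.38, 5.97 and 6.48 in sternocleidomastoid samples and 5.62, 5.79, 5.54 and 5.23 in quadriceps samples. Every tumor lay below every muscle sample, the reverse of Mir7-1, and the difference was -1.19 ± 0.16 (limma adjusted p = 3.55e-06).

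In both pairs the mean differences of aortas from muscle had the same signs as those of tumors. In aorta minus muscle, Mir181b-1 differed by 0.68 without passing and Mir181b-2 by -1.75 (limma adjusted p = 3.34e-07). Mir7-1 differed by 0.41 (adjusted p = 0.0231, lost in 2 of the fits without 1 array) and Mir7-2 by -0.92 (adjusted p = 0.000848). Aortas overlapped the muscle samples in Mir181b-1 and in Mir7-1. Between tumors and aortas the splits were 1.24 for the Mir181b pair (exact permutation, adjusted p = 0.293) and 0.72 for the Mir7 pair (adjusted p = 0.159), and neither passed.

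Mir16-1 and Mir16-2, whose miR-16 represses cell cycle genes, split by -0.63 against muscle and by -0.59 against aorta (exact permutation p = 0.00606, the smallest possible with 7 tumors and 4 aortas; adjusted p = 0.0343). Mir16-2 had 4.52, 5.11 and 5.44 in tumors (lowest, median and highest), against 4.67, 4.90, 4.64 and 4.61 in aortas, 4.31, 4.70, 4.18 and 4.63 in sternocleidomastoid samples and 4.37, 4.12, 4.20 and 4.59 in quadriceps samples, and rose against muscle by 0.69 ± 0.12 (limma adjusted p = 9.04e-05; -0.12 on the housekeeping scale). Mir16-1, from 5.23 to 6.09 in tumors, differed by 0.07 ± 0.15 (adjusted p = 0.746). With 1 sample left out the aorta split lay between -0.68 and -0.49, and its adjusted p, between 0.0364 and 0.0664, missed 0.05 in 9 of 11 exact tests. The smallest exact p before adjustment is then 0.0167 without an aorta and 0.00952 without a tumor, so these misses say nothing about stability. Smc4, a condensin gene whose span holds Mir16-2 and Mir15b, rose by 1.34 against aorta and 1.84 against muscle. Mir218-1 and Mir218-2, inside Slit2 and Slit3, split by 0.67, and Mir218-1 rose against muscle by 0.60 ± 0.16 (adjusted p = 0.00343; -0.21 on the housekeeping scale).

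The other pairs that passed against muscle were Mir181a-1 and Mir181a-2 (0.74), Mir199a-1 and Mir199b (0.63), Mir194-1 and Mir194-2 (0.62), Mir219a-1 and Mir219a-2 (0.52), Mir125b-1 and Mir125b-2 (0.46), and Mirlet7a-1 and Mirlet7c-2 (-1.14), which share only a 3p strand, with adjusted p of 0.0343 to 0.0403. The 4 leading pairs passed each time 1 sample was left out. With tumors 5 to 7 alone the splits were 3.77 for Mir181b-1 and Mir181b-2, 2.33 for Mir7-1 and Mir7-2, -0.51 for Mir16-1 and Mir16-2 and 0.69 for Mir218-1 and Mir218-2, each with an adjusted p of 0.0727 in the exact permutation test, whose smallest p before adjustment is 0.0121 with 3 tumors and 8 muscle samples.

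**Figure D4:**
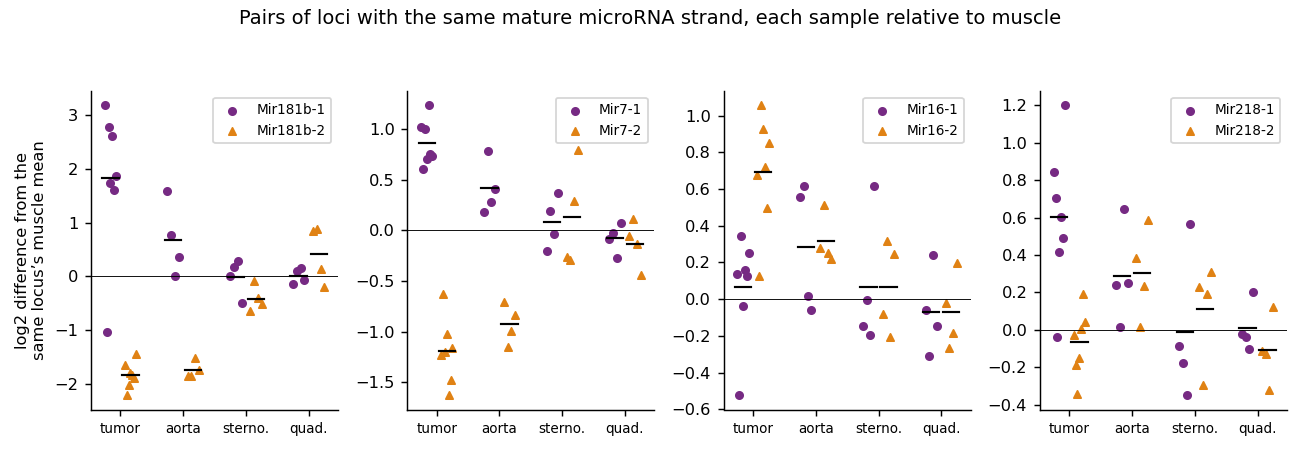
Log2 difference of each sample from the mean of both muscle group means of the same locus, for 4 pairs of loci with a shared mature strand; circles are the first locus, triangles the second and black dashes group means (sterno., sternocleidomastoid; quad., quadriceps). In tumors the means of Mir181b-1 and Mir181b-2 lie at 1.83 and -1.84 and those of Mir7-1 and Mir7-2 at 0.86 and -1.19.

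Host genes and precursors were compared in 52 pairs in which the RefSeq span of 1 of 45 measured hosts held the precursor on the same strand. Against aorta the host passed the threshold in 28 pairs and the precursor in 11: in 6 both moved the same way, in 2 they moved in opposite ways, in 20 only the host passed and in 3 only the precursor. Against muscle 9 pairs moved the same way, 0 in opposite ways, 24 had only the host and 4 only the precursor. Over all genes 36.2% passed against aorta and 51.0% against muscle. How often pairs of unrelated genes move the same way was not tested. The correlation of precursor with host differences across the 52 pairs was 0.22 against aorta and 0.68 against muscle, a description without a p, since the pairs share arrays and some share a host. Mirlet7e rose with Spaca6 (0.81 against aorta, limma adjusted p = 0.00660; 1.56 against muscle), and Mir7-1 with Hnrnpk, an RNA-binding protein gene (0.28 against aorta, adjusted p = 0.00784; 0.48 against muscle).

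Opposite calls against aorta came from Mir148b, which rose by 0.58 while its host Copz1 fell by 0.25, and from Mir138-2, which fell by 0.49 while the nuclear pore gene Nup93 rose by 0.85. Pank1, a pantothenate kinase gene, differed by -4.60 from aorta, while Mir107 inside it differed by -0.41 (limma adjusted p = 0.0756). Where 2 or more precursor genes lay within 10 kb (29 clusters with 64 genes), none passed in 21 clusters against aorta, some in 7 and all in 1, which was Mir23a with Mir27a, and against muscle the counts were 12, 11 and 6. No cluster held opposite calls, which need at least 2 called genes in a cluster. Of all precursor genes 15.0% passed against aorta and 35.3% against muscle, while 36.2% and 51.0% of all genes did. The cluster counts are given without counts over other neighbouring genes, and joint movement within clusters was not tested.

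**Figure D5:**
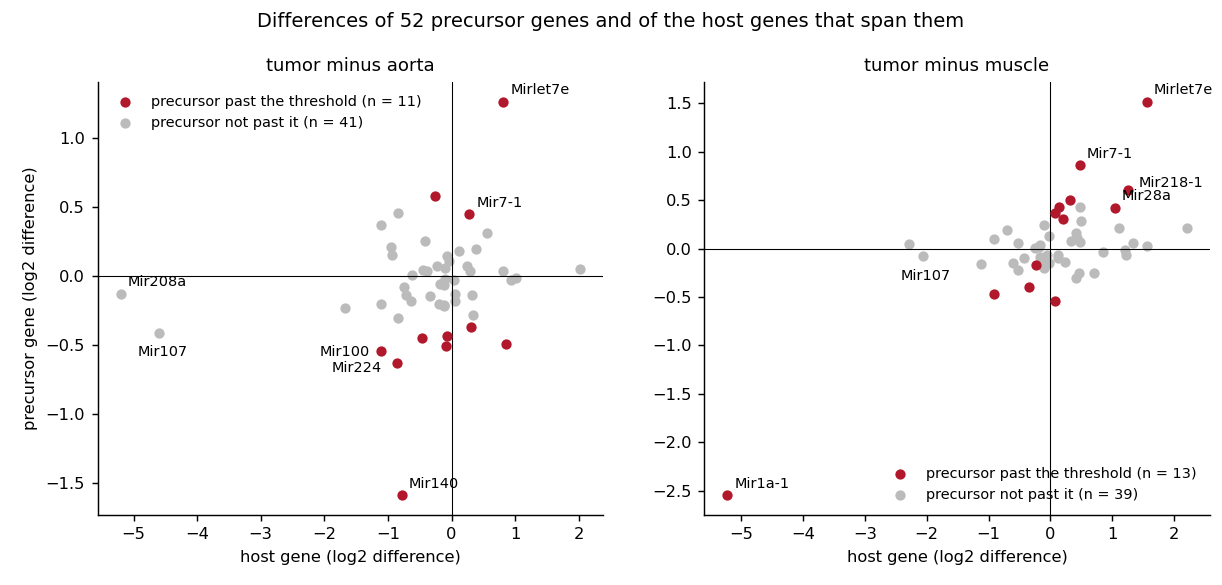
Log2 difference of 52 precursor genes (vertical axis) against that of the host gene that spans each (horizontal axis), for tumor minus aorta on the left and tumor minus muscle on the right; red points are precursors past the threshold. Mir208a and Mir107 lie near a vertical value of 0 although their hosts Myh6 and Pank1 differ by -5.20 and -4.60 from aorta, and Mir1a-1 lies low with its host in the muscle panel.

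Families known from cancer are given next. Of 9 measured genes of the growth-promoting 17 to 92 cluster and its paralogs, 0 rose and 1 fell against aorta, and 1 rose and 2 fell against muscle (0 and 7, and 0 and 8, on the housekeeping scale). The shares, 11.1% against aorta and 33.3% against muscle, lay near the 15.0% and 35.3% of all precursor genes. Mir18 rose by 0.46 ± 0.18 against muscle (limma adjusted p = 0.0414; -0.35 on that scale; lost in 9 of the fits without 1 array), and its neighbours Mir17, Mir19a and Mir20a differed by 0.00, 0.29 and 0.19 without passing. The p53 target Mir34a (0.16 against aorta, -0.06 against muscle), Mir31 (0.05 and 0.22) and Mir221 (0.00 and 0.01) passed in neither. The hypoxia microRNA Mir210 fell by 0.21 against muscle (adjusted p = 0.0213), Mir222 by 0.27 (adjusted p = 0.0121), and Mir10b rose by 0.30 (adjusted p = 0.0384; -0.51 on the housekeeping scale; lost in 10 of the fits without 1 array).

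The small families that follow stand beside 51.0% of all genes past the threshold against muscle and 36.2% against aorta. In the family of miR-15, miR-16 and miR-195, 3 of 5 genes rose against muscle and 0 passed against aorta (2 and 3 fell on the housekeeping scale). Among those that rose were Mir15b (0.64 ± 0.20; limma adjusted p = 0.00982) and Mir195a (0.47 ± 0.11; adjusted p = 0.00114). In the miR-30 family, 3 of 6 fell against muscle and 1 against aorta, with 0 higher (6 and 5 on that scale). Of 3 blood cell precursors, 2 rose against muscle and 0 passed against aorta (2 fell in each on that scale): Mir150 of lymphocytes by 0.42 ± 0.14 (adjusted p = 0.0166) and the pan-leukocyte Mir142 by 0.45 ± 0.18 (adjusted p = 0.0459). Tumor 7 had 6.55 for Mir142, while the other tumors lay between 4.98 and 5.37, and without it the difference was 0.26 (adjusted p = 0.0603). The call was lost in 10 of the fits without 1 array (adjusted p of 0.0505 to 0.0908). The 4 measured lymphocyte markers summed to 6.55 to 8.14 in tumors, against 7.16 to 9.69 in aortas, 6.82 to 7.08 in sternocleidomastoid and 6.69 to 7.10 in quadriceps samples. Of these markers, 0 passed against muscle and all 4 fell against aorta. The summed macrophage markers ran from 10.83 to 12.17 in tumors, against 9.37 to 9.69 in aortas, and the part of these cell types in the Mir142 and Mir150 values was not tested.

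Between the normal tissues, 24 precursor genes passed in aorta against muscle (15.7%), 12 higher and 12 lower, while 32.3% of all genes passed (17.0% higher and 15.3% lower). The groups did not overlap in 12, against 27.2% of all genes. The aorta was highest above muscle in Mir145a (3.38 ± 0.48; limma adjusted p = 1.66e-05), Mir140 (1.87 ± 0.21; adjusted p = 9.38e-07), Mir143 (1.85 ± 0.30; adjusted p = 8.02e-05) and Mir193b (1.40 ± 0.19; adjusted p = 7.65e-06). It was lowest in Mir133a-1 (-2.83), Mir1a-1 (-2.47), Mir133a-2 (-2.33), Mir181b-2 (-1.75) and Mir7-2 (-0.92), the same genes that were lower in tumors with no overlap against muscle by over 1 log2 unit.

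Between the sternocleidomastoid and quadriceps muscles, no precursor gene passed with limma over all genes, while 0.433% of all genes did. An unadjusted p under 0.05 was found in 13 precursor genes, given here without a count over all genes. In 7 precursor genes the muscle groups did not overlap, against 7.6% of all genes. The largest difference was -0.83 ± 0.21 in Mir181b-2 (adjusted p = 0.123), and with 1 variance per group it and Mir211 passed.

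The genes that make and use microRNAs were taken from the same fit. Dicer1, the gene targeted in the tumor-bearing mice, had 8.17, 8.62 and 8.80 in tumors (lowest, median and highest), against 8.26, 8.40, 8.02 and 8.26 in aortas, 8.28, 8.44, 8.52 and 8.43 in sternocleidomastoid samples and 8.66, 8.62, 8.91 and 8.85 in quadriceps samples. The groups overlapped, and the differences were 0.29 ± 0.12 from aorta (limma adjusted p = 0.0714) and -0.06 ± 0.10 from muscle (adjusted p = 0.629; -0.88 on the housekeeping scale). No source used here says where the Dicer1 probes lie relative to the floxed part of the gene, and the values are therefore no check of the deletion.

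Of 22 measured pathway genes, 10 rose and 0 fell against aorta (0 and 10 on the housekeeping scale), and 12 rose and 5 fell against muscle (2 and 16 on that scale). These are 45.5% and 77.3% of the 22, while 36.2% and 51.0% of all genes passed. Those that rose against aorta included the Argonaute gene Ago2 (0.75 ± 0.10; limma adjusted p = 9.00e-06), its silencing partner Tnrc6a (0.85 ± 0.16; adjusted p = 0.000259), the hairpin exporter Xpo5 (0.63 ± 0.09; adjusted p = 2.21e-05) and the terminal uridylyltransferase gene Tut7 (0.61 ± 0.08; adjusted p = 6.76e-06). Drosha, the nuclear enzyme that frees the hairpin, rose by 0.35 ± 0.12 against aorta (adjusted p = 0.0281) and fell by 0.31 against muscle (adjusted p = 0.0145). Lin28a and Lin28b, which block let-7 maturation, differed by 0.13 and -0.06 from aorta without passing, and fell by 0.34 and 0.23 against muscle.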

How the data were processed

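The deposited values, read as log2 intensity from their range of 1.59 to 13.78 with no value below 0, came from 19 Affymetrix mouse arrays, 1 per sample. Per the labels' protocols, RNA was extracted with the miRNeasy mini kit, checked on a Bioanalyser and labelled as biotinylated cRNA. Partek 6.6 is named in the submitters' processing notes without a role, while no source used here gives the normalization, log base, detection calls or genome build. The number of arrays limits the precision.

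Of 41345 probe sets, 23521 had 1 symbol, 1814 several and 16010 none in the platform annotation. For each gene with several single-symbol probe sets (1082 of 22180) the brightest by mean over all arrays was kept. Group means were fitted over all arrays with lmFit and tested two-sided with eBayes (limma 3.58.1, R 4.3.3). P-values were adjusted over all 22180 genes by Benjamini-Hochberg, with a threshold of 0.05. Permutation tests, tables and figures used Python 3.11.15, pandas 2.3.3, scipy 1.17.1 and matplotlib 3.10.9. The fit was tested on simulated data. Sequences and host spans came from RefSeq tables of GRCm38.p6, matched by symbol.

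The members and gene lists were chosen with earlier results of these data known. Named genes were the largest separated differences in each comparison (8 in each tumor comparison, 5 in aorta against muscle and 3 between muscles, where so many passed) and a fixed list. Mirlet7e, Mirlet7c-2, Mir15b, Mir16-1, Mir16-2, Mir23b, Mir148b, Mir151, Mir181a-1, Mir181a-2, Mir181b-1, Mir193a, Mir196a-1, Mir196a-2, Mir218-1 and others were named in addition, after their values were seen.

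Alternatives for scaling were centring on the median gene, on housekeeping genes, or quantile normalization. Others were a filter on dim genes, averaged probe sets, trend and robust eBayes, 1 variance per group, a fit without the uncompared groups, a threshold of 0.01, a 2-fold minimum, a single muscle, and omission of each array. Tumors 1 to 4 or 5 to 7 alone, labelled before and after the normal tissues, and the paired loci were added after seeing the data.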

Additional observations from a re-analysis of the deposited data

Results flagged for a closer look

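In groups of 4 or 7 samples, a sample was singled out when its gap to the nearest other sample was too large a share of the group's range by Dixon's 95% criterion. This applied to 17 of 228 groups of named precursor genes. Chance alone singles out about 1 in 20. Some of these genes were named after their values were seen, so the count cannot be set against that share. Tumor 2 stood apart from the other tumors in 4 genes: Mirlet7e (4.89, against 6.16 to 6.98 in the other tumors), Mir181b-1 (2.81, against 5.47 to 7.04), Mir222 (3.28, against 3.52 to 3.69) and, as the high one, Mir208a (2.91, against 2.42 to 2.62). Other single tumors were high: tumor 7 in Mir142 (6.55, against 4.98 to 5.37) and Mir154 (5.50, against 3.08 to 3.62), tumor 6 in Mir196a-1 (7.12, against 3.48 to 4.73), tumor 3 in Mir15b (4.27, against 2.45 to 3.14) and tumor 1 in Mir181a-1 (3.63, against 2.60 to 3.03).

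Among the aortas, replicate 3 was low in Mir18 (4.54, against 5.16 to 5.25) and high in Mir141 (3.19, against 2.74 to 2.79), replicate 1 was low in Mir10b (2.52, against 3.10 to 3.21) and high in Mir151 (4.48, against 4.29 to 4.32), and replicate 2 was low in Mir193b (5.81, against 6.17 to 6.22). Among the muscles, quadriceps 4 was low in Mirlet7c-1 (3.01, against 3.73 to 3.80), quadriceps 2 was high in Mir142 (5.29, against 4.76 to 4.81) and sternocleidomastoid 3 was low in Mir133a-1 (5.53, against 5.97 to 6.05). No cause was tested for any of these values.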

How the results depend on the processing

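Of 228 differences in 57 named genes, 70 passed the threshold and 20 of these did so under every alternative run. Of the 158 that did not pass, 66 passed under some alternative. Centring on the housekeeping genes gave 124 precursor genes past the threshold against aorta, 135 against muscle and 58 in aorta against muscle (median of all genes -0.23). Of all 22180 genes, 1296 then rose and 16765 fell against aorta, and 1748 rose and 18089 fell against muscle. In aorta against muscle 2107 rose and 8261 fell. On that scale the sign turned in 22 of 57 named genes against aorta, 25 against muscle and 16 in aorta against muscle. Of these, 12, 2 and 14 passed on neither scale. The others, past the threshold on at least 1 scale, were Mir10b (-0.37 against aorta, -0.51 against muscle), Mir20a (-0.43, -0.62), Mir31 (-0.52, -0.60), Mir142 (-0.56, -0.36), Mir151 (-0.18, -0.48), Mir221 (-0.57, -0.81) and Mir23b (-0.46, -0.39). Against aorta they also included Mir133b (-0.33), Mir34a (-0.41) and Mir7-1 (-0.12). Against muscle they also included Mir135b (-0.77), Mir140 (-0.53), Mir148b (-0.32), Mir15b (-0.17), Mir16-1 (-0.75), Mir16-2 (-0.12), Mir17 (-0.81), Mir18 (-0.35), Mir181a-1 (-0.57), Mir19a (-0.52), Mir218-1 (-0.21), Mir224 (-0.65), Mir27a (-0.030), Mirlet7b (-0.38), Mirlet7c-1 (-0.13) and Mirlet7i (-0.79). In aorta against muscle they were Mir124a-3 (-0.23) and Mirlet7i (-0.22). Mir196a-1 turned with tumors 1 to 4 alone (-0.53 against aorta, -0.48 against muscle), which leaves out its high tumor 6.

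With dim genes left out, 25 precursor genes stayed in the test, and 6 passed against aorta, 11 against muscle and 8 in aorta against muscle. Of the 12539 genes that stayed, 3946 rose and 3315 fell against aorta, and 4992 rose and 4276 fell against muscle. In aorta against muscle 3494 rose and 3065 fell. A threshold of 0.01 left 14 and 27 in the tumor comparisons, and a 2-fold minimum left 5, 10 and 8. Of all 22180 genes, the 0.01 threshold left 3067 higher and 2894 lower against aorta, and 4789 and 4421 against muscle. The 2-fold minimum left 1261 higher and 1308 lower against aorta, 2140 and 1723 against muscle, and 1054 and 939 in aorta against muscle. Tumors 5 to 7 alone gave 15 against aorta, 7 higher and 8 lower, and the compared groups alone gave 38 in aorta against muscle. Over all genes the first of these fits gave 3453 higher and 3056 lower, and the second 4927 higher and 3964 lower. Between the muscles 2 passed with 1 variance per group, while 133 of all genes were higher and 86 lower. Median centring split the calls against muscle into 21 higher and 38 lower, and quantile normalization into 29 and 17, with 10 and 13 against aorta. Over all genes these were 5160 and 6968, and 5506 and 5602, with 4103 and 3820 against aorta. Leaving out 1 array gave 18 to 28 against aorta, 43 to 54 against muscle, 18 to 26 in aorta against muscle and 0 to 1 between the muscles, where 1 gene, Mir181b-2, passed without quadriceps 4. No paired analysis was possible because the replicate numbers were given in accession order and pair nothing. The cause of these changes was not tested, and dim signal in most precursor genes limits the size of what can be seen.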
